A study of Mus musculus with 6 samples.

Results

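The nuclear-encoded genes of the mitochondrial respiratory chain were examined in B16 cells, a mouse melanoma line, with CUT&Tag peak lists for H3K4me3 and p300. The genes were chosen by symbol from the protein-coding genes that RefSeq places on chromosomes 1 to 19 and X of GRCm38. Symbols starting with Nduf followed by a, b, c, s or v, with Uqcr, with Cox4 to Cox8 or with Atp5 were taken, and Sdha, Sdhb, Sdhc and Sdhd. This gave 96 of 21631 genes: 41 named for complex I, 8 named for complex I assembly (Ndufaf), 4 for complex II, 8 for complex III, 18 for complex IV and 17 for complex V. The grouping follows the symbols, so that Ndufa4, a protein now often placed in complex IV, is counted with complex I.

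The series concerns thymine DNA glycosylase (Tdg) in cells with or without the tumour suppressor gene Trp53. Of its 6 libraries, the 2 from wild-type B16 cells stained for H3K4me3 or for p300 were used, 1 library per antibody, from cells grown in DMEM with fetal bovine serum and given no named treatment. The other 4 libraries, for H3K9me3 in wild-type, Tdg knockout, Trp53 knockout and double knockout cells, were not analysed here. With 1 library per antibody there is no replicate check, no genotype was compared, and every difference below is a description without a test. In CUT&Tag an antibody on chromatin guides a transposase that cuts and tags the DNA around it, and a peak is a region where tagged fragments pile up. The H3K4me3 list held 27011 peaks on the chromosomes used and the p300 list 6508. Median summits held 80 and 39 reads and the smallest listed summits 15 and 14, so that weak sites may have been missed in either list. Of the pigment cell genes Mitf, Sox10, Tyr, Tyrp1, Dct, Pmel and Mlana, 6 of 7 carried H3K4me3 at a gene end. So did 3 of 14 markers of other cell types (Apoa1, Ckm and Col1a1) and 51.1% of all protein-coding genes. With the gene itself included, the counts were 7 of 7, with Mlana, and 5 of 14, with Cdh1 and Pecam1, beside 59.6% of all genes. Where a peak was at an end, the authors' median enrichment over background was 4.99 for the pigment cell genes and 6.55 for the other markers. The pigment cell genes thus had the larger share but not the stronger peaks.

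The respiratory chain passes electrons from NADH and succinate to oxygen. Complexes I and II take the electrons up, ubiquinone carries them to complex III, cytochrome c carries them to complex IV, and the proton gradient built on the way drives ATP synthesis by complex V. Most subunits are encoded in the nucleus and expressed in nearly all cells, but several subunits of complex IV exist as isoforms expressed mainly in muscle, lung or testis. H3K4me3 marks the starts of active genes, most strongly at starts rich in CG dinucleotides. p300 is an acetyltransferase of histones found at active enhancers and promoters. The transcription factors NRF1, GABP (an ETS factor) and YY1 are known for controlling many respiratory chain genes.

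Promoter sequences of isoform pairs in complex IV are shown because the chromatin of these pairs differed in the sections that follow. Each is the stretch before the RefSeq transcript start in GRCm38.p6, written in the gene's direction, with each CG dinucleotide in capitals. The genes were picked after their values were seen. Cox8a (chr19:7217617-7217866 (minus strand)), Cox6b1 (chr7:30626115-30626364 (minus strand)) and Cox7b (chrX:106015450-106015699 (plus strand)) are the widely expressed forms. Cox8b (chr7:140900447-140900696 (minus strand)) is a muscle form, and Cox6b2 (chr7:4753095-4753225 (minus strand), the 131 bases that lie outside any annotated gene) and Cox7b2 (chr5:71548206-71548455 (minus strand)) are testis forms. The 250 bases of Cox8a held 11 CG and those of Cox8b 1, whereas Cox7b with 5 held fewer than its testis form Cox7b2 with 9.
Cox8a: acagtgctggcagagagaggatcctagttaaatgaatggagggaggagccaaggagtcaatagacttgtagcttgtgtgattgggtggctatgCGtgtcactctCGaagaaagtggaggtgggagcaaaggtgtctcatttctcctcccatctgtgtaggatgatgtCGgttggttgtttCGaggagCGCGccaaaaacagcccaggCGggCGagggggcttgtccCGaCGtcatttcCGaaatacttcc
Cox8b: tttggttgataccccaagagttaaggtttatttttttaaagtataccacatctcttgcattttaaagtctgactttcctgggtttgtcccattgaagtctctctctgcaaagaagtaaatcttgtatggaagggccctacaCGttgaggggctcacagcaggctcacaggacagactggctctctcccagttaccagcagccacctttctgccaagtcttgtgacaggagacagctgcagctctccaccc
Cox6b1: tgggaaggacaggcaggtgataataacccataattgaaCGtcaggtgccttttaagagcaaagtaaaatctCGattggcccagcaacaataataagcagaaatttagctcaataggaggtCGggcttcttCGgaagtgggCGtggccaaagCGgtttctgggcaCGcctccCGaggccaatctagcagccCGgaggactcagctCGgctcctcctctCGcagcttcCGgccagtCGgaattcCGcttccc
Cox6b2: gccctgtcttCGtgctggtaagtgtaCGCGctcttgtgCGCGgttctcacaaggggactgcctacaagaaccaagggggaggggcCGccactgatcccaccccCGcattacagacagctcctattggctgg
Cox7b: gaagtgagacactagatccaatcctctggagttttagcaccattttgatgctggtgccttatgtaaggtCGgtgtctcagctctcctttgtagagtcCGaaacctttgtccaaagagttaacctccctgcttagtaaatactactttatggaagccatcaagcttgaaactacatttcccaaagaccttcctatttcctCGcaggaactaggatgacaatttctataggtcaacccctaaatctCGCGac
Cox7b2: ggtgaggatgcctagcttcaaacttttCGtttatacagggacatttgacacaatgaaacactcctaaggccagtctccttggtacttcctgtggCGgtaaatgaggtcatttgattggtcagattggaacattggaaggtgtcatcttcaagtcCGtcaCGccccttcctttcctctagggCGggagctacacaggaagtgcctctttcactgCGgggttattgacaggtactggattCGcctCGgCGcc

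A second set shows promoters with and without the letters bound by NRF1, ETS factors or YY1, which are in capitals on whichever strand they were found. Ndufb4 (chr16:37654369-37654618 (minus strand)) held the NRF1 letters at 3 places. Cox6a1 (chr5:115348959-115349208 (minus strand)) held them at 2 places, and the ETS letters CCGGAAG on the opposite strand 16 bases before the start. Ndufs5 (chr4:123718187-123718436 (minus strand)) held 1 NRF1 match and Uqcr11 (chr10:80406822-80407071 (minus strand)) 1 ETS match. Cox7c (chr13:86046796-86047045 (minus strand)) held none of them, although its H3K4me3 peak was among the highest in fold.
Ndufb4: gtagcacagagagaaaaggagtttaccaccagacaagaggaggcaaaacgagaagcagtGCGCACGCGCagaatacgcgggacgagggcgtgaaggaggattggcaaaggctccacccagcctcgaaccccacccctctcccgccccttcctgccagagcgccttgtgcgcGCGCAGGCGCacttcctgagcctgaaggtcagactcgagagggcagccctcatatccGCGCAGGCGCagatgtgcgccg
Cox6a1: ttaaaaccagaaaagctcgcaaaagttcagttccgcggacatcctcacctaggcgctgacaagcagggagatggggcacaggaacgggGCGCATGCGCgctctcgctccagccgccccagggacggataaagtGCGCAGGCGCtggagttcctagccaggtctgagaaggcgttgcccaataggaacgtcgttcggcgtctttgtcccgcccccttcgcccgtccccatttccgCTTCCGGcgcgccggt
Ndufs5: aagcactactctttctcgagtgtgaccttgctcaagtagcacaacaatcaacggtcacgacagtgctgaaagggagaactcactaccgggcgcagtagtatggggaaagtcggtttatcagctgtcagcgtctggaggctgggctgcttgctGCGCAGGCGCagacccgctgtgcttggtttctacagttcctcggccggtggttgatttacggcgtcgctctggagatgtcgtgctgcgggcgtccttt
Uqcr11: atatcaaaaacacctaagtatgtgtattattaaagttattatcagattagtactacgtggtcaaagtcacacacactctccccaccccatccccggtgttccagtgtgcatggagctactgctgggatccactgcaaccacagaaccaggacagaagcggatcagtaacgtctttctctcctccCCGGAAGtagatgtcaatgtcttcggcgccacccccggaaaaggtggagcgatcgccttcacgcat
Cox7c: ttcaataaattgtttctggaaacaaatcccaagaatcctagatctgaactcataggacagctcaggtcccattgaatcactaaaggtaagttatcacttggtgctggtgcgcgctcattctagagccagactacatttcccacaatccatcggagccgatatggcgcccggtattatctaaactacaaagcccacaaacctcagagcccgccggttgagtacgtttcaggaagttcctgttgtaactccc

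H3K4me3 lay at nearly all respiratory chain genes apart from a group of complex IV isoforms. A peak within 1 kb of either annotated gene end was found at 83 of 96 genes (86.5%), beside 51.1% of all protein-coding genes. By complex the counts were 38 of 41 for complex I, 8 of 8 for complex I assembly, 4 of 4 for complex II, 8 of 8 for complex III, 9 of 18 for complex IV and 16 of 17 for complex V. When the gene itself was included, 87 of 96 had a peak (90.6%), beside 59.6% of all genes. Within 50 kb of an end the count was 93, beside 76.1% of all genes. The respiratory chain genes are short, with a median span of 7228 bp against 17329 bp for all genes, and both sets had a median of 3 other protein-coding genes within 50 kb.

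The 13 genes without H3K4me3 at an end fell into 3 kinds. The first comprised the 7 tissue-restricted isoforms of complex IV, namely Cox4i2 (lung), Cox6a2, Cox7a1 and Cox8b (heart and skeletal muscle) and Cox6b2, Cox7b2 and Cox8c (testis). None of these 7 had an H3K4me3 peak in the gene either. The second comprised Ndufb4b and Ndufb4c, short genes of 471 and 485 bp named as copies of Ndufb4, which had no H3K4me3 peak within 50 kb. Because reads from near-identical copies may be assigned to either, these 2 genes are uncertain. The third comprised Cox5a, Cox7a2, Atp5d and Ndufa4l2, whose peaks lay inside the annotated span, so that only the window at the ends missed them. The peak over an inner start had a fold of 4.50 at Cox5a, a subunit on the matrix side of complex IV. Such peaks had folds of 10.7 at Cox7a2, the widely expressed partner of Cox7a1, and 3.21 at Atp5d, the delta subunit of the ATP synthase. Ndufa4l2, a relative of Ndufa4 known for its induction by low oxygen, had a peak of fold 4.72 inside the gene. Fold here is the authors' enrichment of a peak over its background.

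Set side by side, the isoform pairs separated by H3K4me3 in every case. Cox6a1 had a fold of 8.42 at its end and Cox6a2 no peak. Cox6b1 had a fold of 8.71 and Cox6b2 no peak. Cox7b had a fold of 4.76 and Cox7b2 no peak, and Cox8a a fold of 7.40 with no peak at Cox8b or Cox8c. Cox7a2 and Cox7a1 differed in the same direction once the inner start of Cox7a2 was counted. The pair of the regulatory subunit was the weakest contrast. The peak nearest an end of Cox4i1 (gene chr8:120668225-120674209) had a fold of only 3.37 and 60 reads at its summit, lay 966 bp outside the gene, and was also at the ends of Emc8 and Gm27021. A further peak inside Cox4i1 had a fold of 3.73, and Cox4i2 had none. Leaving the 7 restricted isoforms aside, 87 of 89 genes carried H3K4me3 in the gene or within 1 kb, including 11 of 11 of complex IV.

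**Figure D1:**
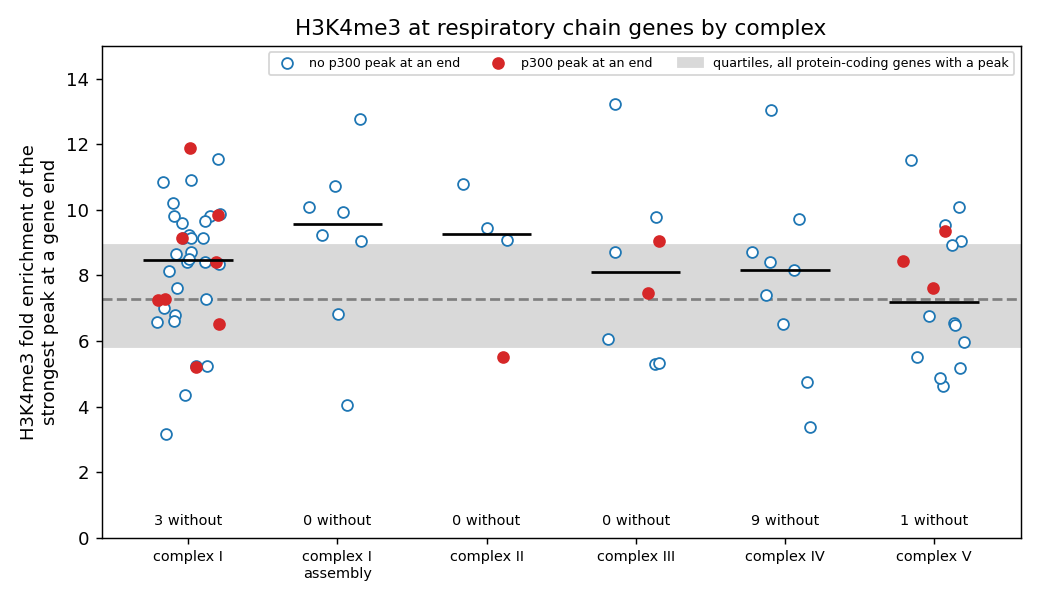
Fold enrichment of the strongest H3K4me3 peak at an end of each respiratory chain gene (points), by complex, with the complex median as a black line and genes with a p300 peak at an end filled in red. The grey band and dashed line give the quartiles (5.82 and 8.91) and median (7.28) of all protein-coding genes with a peak. Complex IV has 9 genes without a peak at an end and no red point, with Ndufa4 drawn under complex I.

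The H3K4me3 peaks at respiratory chain genes were somewhat higher and wider than those of genes in general. Over the 83 genes the median fold was 8.45 (quartiles 6.57 and 9.63), against 7.28 (quartiles 5.82 and 8.91) for all protein-coding genes with a peak at an end. Of the 83, 54 lay above the median fold of all genes, 56 above the median width and 64 above the median of summit reads. The median width was 1269 bp against 1109 bp, and the median summit held 168 reads against 132. The background behind the peaks was also higher, with a median of 19.6 reads against 16.7. These ranges overlap broadly, as the plot by complex shows.

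Within complex I, the entry point for electrons from NADH, the median fold was 8.47. Ndufv3, an accessory subunit of the arm that binds NADH, had the highest fold, 11.9, and the most summit reads of any respiratory chain gene, 406. It was followed by the accessory subunits Ndufa12 with 11.5 and Ndufa8 with 10.9. Among the lowest folds was that of Ndufb10, a subunit of the membrane arm, with 4.36. This peak was not poor in reads: its summit held 218 over a background of 49.2. The genes for assembly of complex I had the highest median of any group, 9.57, led by Ndufaf7 with 12.8, a methyltransferase, Ndufaf1 with 10.7 and Ndufaf2 with 10.1. The lowest of them were Ndufaf3 with 4.05 and Ndufaf8 with 6.84, whose summits held 254 and 360 reads.

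In complex II, the succinate dehydrogenase that also belongs to the TCA cycle, the median fold was 9.27. The membrane anchors Sdhc and Sdhd had folds of 10.8 and 9.09, and the flavoprotein Sdha 9.46. The iron-sulphur subunit Sdhb was lowest in fold, 5.50, but highest in summit reads of these 4, 275, with a background of 49.2. Complex III had a median of 8.09 and the highest fold of all 83 genes, 13.2 at Uqcrb, the ubiquinone-binding protein. Uqcrc1, a large core protein, followed with 9.79 and Uqcrq, a small subunit of the membrane part, with 9.07. Uqcr11 and Uqcrh, both small subunits, were lowest with 5.30 and 5.33.

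Complex IV had a median fold of 8.16 over its 9 genes with a peak. Cox7c led with 13.1, although its summit held only 109 reads, over the lowest background of all, 7.43. Cox7a2l, known for joining complexes III and IV into supercomplexes, had 9.72, and Cox6b1 8.71. Cox4i1 and Cox7b were lowest, with 3.37 and 4.76. Complex V had the lowest median, 7.19. Atp5e, the epsilon subunit of the stalk, had a fold of 11.5, the small membrane subunit Atp5md 10.1 and Atp5j2, subunit f, 9.53. Atp5a1, the alpha subunit of the catalytic head, was lowest with 4.62 and had the fewest summit reads of all 83 genes, 56. Atp5h, subunit d of the stator, had 4.87. The genes Atp5g1, Atp5g2 and Atp5g3, which encode the same mature c subunit of the rotor ring, all carried H3K4me3, with folds of 7.62, 5.17 and 6.76.

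The order by fold was not the order by reads. The 21 genes at or below the lower quartile of fold had a median of 154 summit reads over a median background of 25.7. The 21 genes at or above the upper quartile had a median of 180 reads over a background of 16.9. The widest peaks were at Ndufs1, the largest iron-sulphur subunit of complex I, with 2275 bp, Ndufaf8 with 2242 bp, Sdhb with 2221 bp, Ndufaf3 with 2178 bp and Uqcr10 with 2064 bp, none of which was among the highest 3 of its complex in fold.

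**Figure D2:**
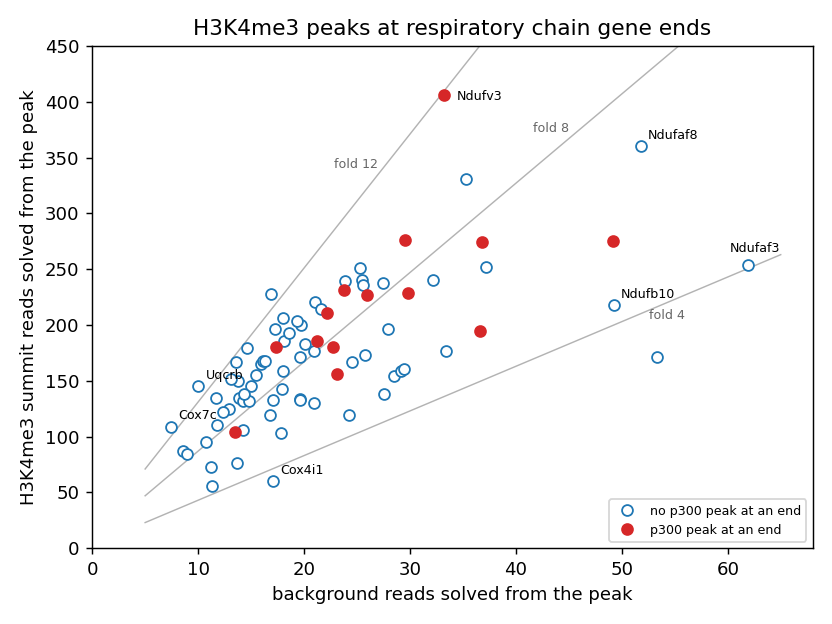
Reads at the summit (vertical axis) against background reads (horizontal axis), both solved from the authors' fold and p-value, for the strongest H3K4me3 peak at an end of 83 respiratory chain genes; lines join points of equal fold and filled points have p300 at an end. Ndufaf3 sits low in fold with 254 reads, over a background of 61.9 reads, while Cox7c reaches a fold of 13.1 with 109 reads.

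Many of these peaks lay at the ends of more than 1 gene. The strongest H3K4me3 peak of 41 of the 83 genes (49.4%) was also within 1 kb of an end of another protein-coding gene, against 28.8% of all genes with such a peak, and the mark there cannot be credited to the respiratory chain gene alone. When peaks shared in this way were left out, 46 of 96 genes (47.9%) had H3K4me3 at an end, beside 37.5% of all genes. RefSeq promoter windows gave the strand and start of 78 of the 96 genes. Of these 78, 22 (28.2%) started within 1 kb of a gene running the opposite way, against 8.59% of the 17274 genes in the table. Partners included the mitochondrial ribosomal protein gene Mrpl47 at Ndufb5, the cytosolic ribosomal protein gene Rps28 at Ndufa7, the mitochondrial import gene Timm8b at Sdhd, the DNA repair gene Ercc8 at Ndufaf2 and Gabpa at Atp5j. These partners were picked after the list was seen.

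At transcript starts themselves, H3K4me3 was found at 73 of the 78 genes, with the peak lying over the start, beside 43.1% of all genes in the table. The 5 without were Cox6b2, Cox7a1, Cox7b2, Cox8b and Ndufb4b. Summits of the 73 genes lay on either side of the start, 37 of them upstream, at a median of -7 bp (quartiles -82 and 70 bp, positive into the gene). Over all 9231 genes with H3K4me3 within 1 kb of a start the quartiles were wider, -159 and 249 bp.

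p300 was found at few respiratory chain promoters. A p300 peak lay within 1 kb of an end of 14 of 96 genes (14.6%), close to the 13.7% of all protein-coding genes. Among genes with H3K4me3 at an end the share was 16.9% of the 83, beside 26.5% of all genes with H3K4me3. With the gene itself included, 16 of 96 had p300 (16.7%), beside 20.2% of all genes. The count was 8 for complex I, 1 for complex II, 2 for complex III and 3 for complex V, with 0 of 8 assembly genes and 0 of 18 genes of complex IV. The 8 include Ndufa4, a protein now often placed in complex IV, so the 0 depends on the grouping by symbol. Only 9 of the 18 had H3K4me3 at an end. Where no p300 peak is listed, none entered the authors' list for this library, and weaker p300 may be present.

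Ndufa4 had the strongest p300 peak at an end, with a fold of 7.64 and 34 reads at its summit. Among subunits of the NADH-binding arm of complex I, Ndufv2 had a fold of 6.36 (39 reads), Ndufv3 5.95 (45 reads) and Ndufv1 4.56 (47 reads). Ndufs1, Ndufs4, Ndufs6 and Ndufa12 of the same arm had no p300 peak at an end. Among the other complex I genes, Ndufa11 had 5.91 (65 reads), Ndufb9 5.53 (34 reads), Ndufa10 5.40 (20 reads) and Ndufs8 2.77 (39 reads). Uqcrq had a fold of 6.20 (57 reads) and Uqcr10 of 4.42 (21 reads). Sdhb had 3.73 (61 reads). In complex V, Atp5mpl had 5.50 (27 reads), Atp5g1 4.53 (23 reads) and Atp5j, coupling factor F6, 4.50 (19 reads). The median fold of the 14 was 5.45, against 5.80 for all genes with p300 at an end. Inside the gene only, Atp5d had a p300 peak of fold 3.80.

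All 14 p300 peaks overlapped an H3K4me3 peak, beside 97.6% of the 2444 p300 peaks at an end of any protein-coding gene and 85.5% of all p300 peaks. With the p300 summit required inside the H3K4me3 peak, or 50% of the p300 peak covered, the count was 13 of 14. For 8 of the 14 the p300 peak was also at an end of another gene, namely Vmac at Ndufa11, Phf14 at Ndufa4, Tatdn1 at Ndufb9, Tcirg1 at Ndufs8, Wdr4 at Ndufv3, Zmat5 at Uqcr10, Gdf9 at Uqcrq and Gabpa at Atp5j. Without shared peaks 6 genes remained (6.25%, beside 8.58% of all genes). The peak credited to Ndufs8 lay beyond the other end of the gene, 4903 bp past its start. In 5 of the 14 the authors' −log10 q was under 10, and with that minimum 9 genes had p300 at an end (9.38%, beside 10.9%).

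More H3K4me3 reads but no higher fold were found where p300 was at an end. In these 14 genes the strongest H3K4me3 summit at an end held a median of 219 reads (range 104 to 406), against 159 (range 56 to 360) for the 69 genes with H3K4me3 alone, and the ranges overlapped. Median widths were 1459.5 and 1232 bp, and median folds 8.02 and 8.64. The lowest value, 104 reads, came from the peak at the far end of Ndufv2, and without Ndufv2 and Ndufs8, whose p300 peak is at its far end, the medians of the other 12 genes were 228 reads, 1534.5 bp and a fold of 8.44. Over all protein-coding genes with H3K4me3 the same comparison gave 171 against 118 reads, 1332 against 1028 bp, and folds of 7.21 against 7.32.

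p300 summits tended to lie before the start. Of the 11 genes with a known start and p300 within 1 kb of it, 10 had the p300 summit upstream, between -444 and -81 bp, and Sdhb had it 263 bp into the gene. The summit of p300 was upstream of that of H3K4me3 in 10 of these 11 genes, beside 51.8% of the 2508 genes with both within 1 kb of a start. The smallest gap in the 10 was 2 bp, at Ndufa11, where the summits nearly coincide. At Ndufv1 p300 lay at -444 bp and H3K4me3 at -39 bp, at Ndufa4 the 2 lay at -81 and 70 bp, and at Uqcr10 at -160 and 69 bp. Over all 2521 genes with p300 within 1 kb of a start, 54.0% of summits were upstream. Several of the 11 starts face a second gene, for which the same position is downstream.

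**Figure D3:**
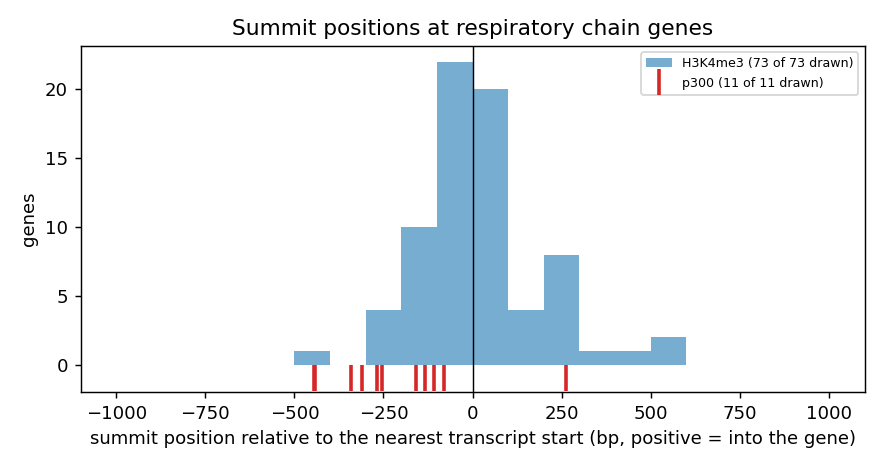
Position of the strongest H3K4me3 summit (histogram of genes, 100 bp bins) and of the p300 summit (red ticks under the axis) relative to the nearest transcript start of respiratory chain genes, in bp, positive into the gene. The 73 H3K4me3 summits centre on the start with a median of -7 bp, and 10 of the 11 p300 summits lie before it.

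A wider window took in more p300 peaks. A p300 peak lay within 50 kb of an end of 54 of 96 genes (56.2%), beside 44.1% of all protein-coding genes. The 54 include the 14 genes with p300 at an end, and the other 40 had p300 only beyond 1 kb. Among the 83 genes with H3K4me3 the share was 57.8%, beside 62.1% of all genes with H3K4me3. By complex the counts were 23 of 41 for complex I, 5 of 8 for assembly, 3 of 4 for complex II, 4 of 8 for complex III, 8 of 18 for complex IV and 11 of 17 for complex V. Such a peak may belong to any gene nearby. The strongest was 37016 bp from Atp5g2, at chr15:102625112-102625852, with a fold of 10.9, followed by one 17092 bp from Ndufab1, the mitochondrial acyl carrier protein, with 8.98, and one 32542 bp from Ndufv3 with 8.50. In complex V Atp5o, the stalk subunit that confers oligomycin sensitivity, was next with a fold of 7.35. The 2 strongest were 7.56 at Cox8a and 6.50 at Cox4i2 for complex IV, 6.90 at Uqcrb and 6.44 at Uqcrq for complex III, 6.59 at Sdha and 5.54 at Sdhc for complex II, and 6.001 at Ndufaf6 and 5.96 at Ndufaf8 for assembly. Of the 7 restricted isoforms, Cox4i2, Cox6a2, Cox7a1 and Cox8b had p300 within 50 kb (folds 6.50, 6.20, 5.93 and 6.25) without H3K4me3 of their own. Ndufv1 had the most p300 peaks within 50 kb, 5. The remaining 42 genes had none, and the nearest p300 peak of Ndufaf4 was 2974293 bp away and that of Cox7c 2311984 bp.

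**Figure D4:**
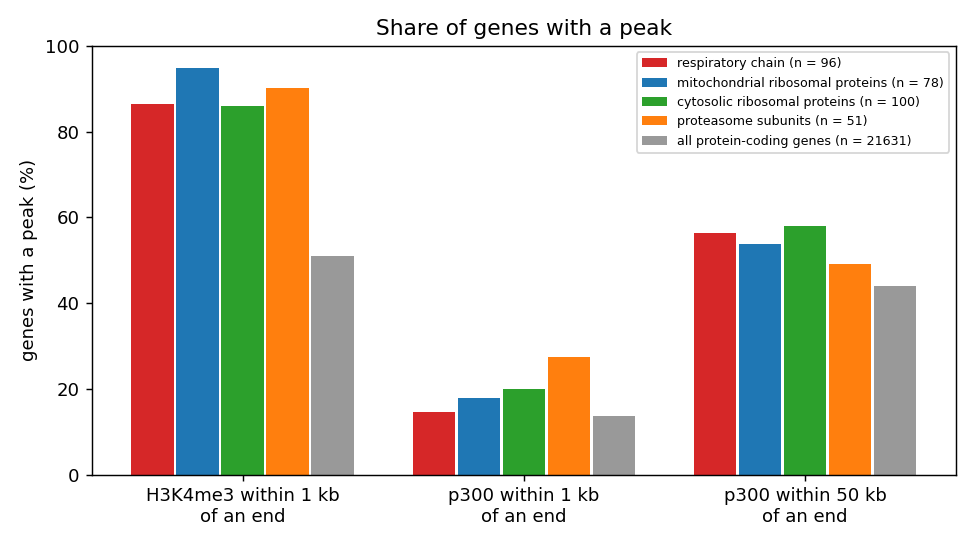
Percentage of genes with a peak (bars, from 0) within 1 kb of a gene end for H3K4me3 and p300 and within 50 kb for p300, in the respiratory chain list, in 3 other families of widely expressed genes and in all protein-coding genes. The families stand between 86% and 94.9% for H3K4me3 against 51.1% of all genes, and the respiratory chain has 14.6% for p300 at an end. The cytosolic ribosomal bars rest on a symbol rule that also takes in Rps6k kinase genes.

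Other families of widely expressed complexes had similar shares. H3K4me3 was at an end of 74 of 78 mitochondrial ribosomal protein genes, 86 of 100 genes of the cytosolic ribosomal list and 46 of 51 proteasome genes. The cytosolic list was taken by symbol, as Rpl or Rps followed by a digit or p. Kinase genes whose symbols start with Rps6k also fall in it, so its values are not those of ribosomal proteins alone. Median folds were 7.66, 5.95 and 8.36, beside 8.45 for the respiratory chain. p300 was at an end of 14 of 78, 20 of 100 and 14 of 51 (17.9%, 20% and 27.5%), beside 14.6% for the respiratory chain. Among genes with H3K4me3 at an end the shares were 18.9%, 23.3% and 30.4%, beside 16.9%. Near-identical ribosomal protein pseudogenes may take reads from the cytosolic list. The high share with H3K4me3 was thus found in every list examined, and whether the shares with p300 differ was not tested.

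Other genes of the pathway outside the symbol rule were read from separate lists, to be set beside 51.1% of all genes with H3K4me3 at an end, 13.7% with p300 there and 26.5% with p300 there among genes with H3K4me3. Of 40 genes for assembly and electron carriers, 39 had H3K4me3 at an end, with a median fold of 8.90, and Atpaf2, which assembles the head of complex V, had peaks only within its span. Of these 40, 14 (35.0%) carried p300 there, strongest at Lrpprc, a stabiliser of mitochondrial mRNA, with a fold of 8.28, and at Bcs1l, which inserts the Rieske protein into complex III, with 8.19. For ubiquinone synthesis 10 of 11 had H3K4me3 at an end (Pdss2 only inside the gene) and 3 had p300 there, strongest at Coq7 with 9.21 and Coq8a with 6.36. Of 13 regulators 12 had H3K4me3 at an end (Gabpb1 only within its span) and 7 had p300 there, led by the mitochondrial transcription genes Tfb1m with 8.13 and Tfb2m with 6.45. All 13 TCA cycle genes had H3K4me3 at an end and 5 had p300 there, led by Idh3a with 7.97.

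The sequence around the starts was described in windows of 250 bases before to 50 after each start, 83 windows for the 78 genes. A median of 20 CG dinucleotides (quartiles 15 and 25.5) was found, against 13 (quartiles 4 and 25) over 21045 protein-coding promoters. Windows of genes with H3K4me3 over a start held 5 to 43 CG and the 5 without held 2 to 10: Cox8b had 2, Ndufb4b 5, Cox7a1 7 and Cox6b2 and Cox7b2 10 each. The groups overlap, since Cox7b with 5 and Ndufc2 with 8 carried H3K4me3. Among the genes with H3K4me3, low and high folds were found across the range of CG counts in the plot of CG against fold.

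**Figure D5:**
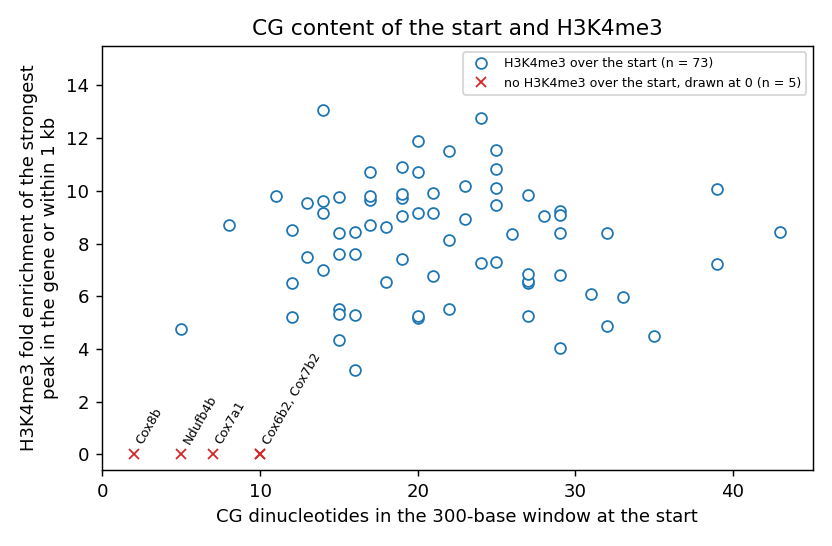
Fold enrichment of the strongest H3K4me3 peak in the gene or within 1 kb against the number of CG dinucleotides in the 300-base window at the start, for 73 respiratory chain genes with H3K4me3 over the start (circles) and 5 without (crosses, drawn at 0). The 5 crosses lie at 2 to 10 CG, and the circles spread from 5 to 43 CG at folds from 3.21 to 13.1.

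Letters of 8 motifs were searched on both strands of the same windows. The NRF1 letters, as capitalised at Ndufb4, were in 20 of 83 windows (24.1%), against 6.44% of all promoters. The ETS letters CCGGAAG were in 19 (22.9%, against 11.7%) and the YY1 letters in 6 (7.23%, against 1.22%). At least 1 of these 3 was in 38 windows (45.8%, against 17.7%), and both the NRF1 and the ETS letters were in 4, those of Sdhd, Cox6a1, Atp5h and Atp5k. The Sp1 letters GGGCGG (43.4%, against 46.7%), the NF-Y letters CCAAT (42.2%, against 38.5%) and the TATA letters TATAAA (10.8%, against 12.7%) were about as frequent as in all promoters. The CREB letters TGACGTCA were in 4 windows (4.82%, against 2.26%) and the ERR alpha letters TNAAGGTCA in 3 (3.61%, against 1.04%). The NRF1, ETS, YY1, Sp1 and CREB letters contain CG, and the windows hold more CG than promoters in general. The part of this in the shares was not tested. By group, the NRF1 letters were in 8 of 37 windows of complex I, 6 of 18 of complex V and 1 of 13 of complex IV. None of the 5 windows without H3K4me3 held NRF1, ETS or YY1 letters. A match is a run of letters and not a bound site.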

How the data were processed

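CUT&Tag libraries of wild-type B16 cells were grouped by title, 1 for H3K4me3 and 1 for p300. The submitters' processing notes name the mm10 build, deepTools, Trim Galore, Picard 2.22.4 and Bowtie2 2.2.5. Not given in the sources used here are the caller of the peaks, any control and any pooling, so PCR copies, repeated sequence and the choice of background may have shaped the peaks. The authors deposited, per peak, a fold enrichment (a ratio to background), a −log10 p and −log10 q, and a score that restates −log10 q. These values were used as deposited, within a list only. The lists state no library depth. Summit and background reads were solved from fold and −log10 p, and whole numbers matched −log10 p to 0.002 in 99.98% (H3K4me3) and 99.97% (p300) of peaks. Fold was taken as reads plus 1 over background plus 1, and p as the upper tail of a Poisson distribution. The solution was tested on peaks simulated by the same formula. That checks the solving and cannot show that the deposited values follow the formula. Whole counts limit the precision of weak peaks most.

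Gene spans came from RefSeq GRCm38.p6, without exons, and starts, strand and sequence from its promoter table, which held 78 of the 96 genes by symbol. A peak counted with 1 bp in the window (1 kb at an end, 50 kb nearby), and the strongest peak stood for a gene. Python 3.11.15, pandas 2.3.3, numpy 2.4.6 and scipy 1.17.1 were used. Peaks on Y, the mitochondrial chromosome and scaffolds were left out of the gene counts. The genes and lists were chosen with earlier results of these data known. Genes named with values are those without H3K4me3 at an end, the 3 highest and 2 lowest in fold of each complex, all with p300 at an end, the 2 with the strongest p300 within 50 kb per complex, the isoform pairs, the 5 widest peaks and, in other lists, genes without H3K4me3 at an end and the 2 strongest with p300. Some genes under this rule are not reported here. Alternatives changed the window, the minimum strength, the treatment of shared peaks and the membership.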

Additional observations from a re-analysis of the deposited data

Results flagged for a closer look

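Both lists held peaks on the mitochondrial chromosome, which encodes the other subunits of the respiratory chain and which no gene comparison above used. The H3K4me3 list had 5 peaks there, covering 4078 bp with folds from 1.66 to 3.67 and overlapping 5 of the 13 mitochondrial protein genes (ND1, ND2, COX1, ND5 and CYTB). The p300 list had 3 peaks there, covering 11322 bp with folds from 1.59 to 2.55 and overlapping 7 of the 13. Their −log10 q in the p300 list ranged from 287 to 1165. A control library to set beside them was not used here.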

How the results depend on the processing

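Of 47 alternative values over 8 measures, 9 moved and 38 did not, with no test involved. A share counted as moved beyond 1.5 times, and a median with any change in its first 3 significant digits. Shares that fell without moving by this rule include p300 within 25 kb, 37.5% (all genes 33.3%), and, for H3K4me3 at an end, the peaks above the median fold, 68.8% (34.8%). Leaving out peaks also at an end of another gene gave 47.9% with H3K4me3 (all genes 37.5%), 6.25% with p300 at an end (all genes 8.58%), a median H3K4me3 fold of 8.42 (7.27) and a median width of 1216 bp (1034). Keeping only the peaks above the median fold of each list gave 5.21% with p300 at an end (7.01%), 5.21% in the gene (11.0%) and 33.3% within 50 kb (27.2%). A minimum −log10 q of 10, added after the data were seen, gave 9.38% with p300 at an end (10.9%) and 9.38% in the gene (16.5%). The planned minimum of 5 removed no peak, so its values, which are counted among the 38, could not move. Thus the respiratory chain stayed above all genes for H3K4me3 at an end in each alternative run, while its share with p300 at an end lay on either side of that of all genes. No paired analysis was possible because each antibody had 1 library and the labels number no replicates. Depth is known only through the solved reads, and weak or repeated sites may be missed.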

Other observations

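Atp5j and Gabpa, which encodes the DNA-binding subunit of GABP, start head to head. An H3K4me3 peak of fold 8.45 and 227 reads and a p300 peak of fold 4.50 lay at the ends of both genes. Atp5j had 2 H3K4me3 peaks at its ends, and this was the stronger. An Atp5j window outside this stronger peak held 43 CG, the most of any respiratory chain window, and neither the ETS nor the YY1 letters. The ETS letters, which GABP binds, and the YY1 letters were in a different Atp5j window, which held 18 CG. This pair was picked after its values were seen.

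Ppargc1a, a coactivator of genes of mitochondrial biogenesis, had 1 H3K4me3 peak at an end, with a fold of 5.65. It had 10 peaks in the gene or within 1 kb, the strongest with a fold of 9.64, and no p300 peak within 50 kb of an end. Its relative Ppargc1b had 3 H3K4me3 peaks, the strongest with a fold of 5.79, and no p300 peak within 50 kb of an end. NRF1's own gene, Nrf1, also had H3K4me3 (fold 5.35 at an end) without p300 within 50 kb of an end. That measure does not count p300 deeper inside a long gene, so p300 there is not excluded for Ppargc1a, Ppargc1b or Nrf1. Yy1 had p300 at an end with a fold of 4.33 and Esrra, the gene for ERR alpha, with 5.92. These regulators too were picked after their values were seen.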
